A study of Mus musculus with 2 samples.

Results

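A set of 10 basement membrane genes, of 41709 genes in the deposited tables, was described in whole lung: Fras1, Frem1 and Frem2, Npnt (nephronectin), Tinag and Tinagl1, the nidogen genes Nid1 and Nid2, Hspg2 (perlecan) and Agrn (agrin). They were chosen by name and matched to the tables through NCBI gene numbers, and Tinag and Frem1 were chosen partly because their reads were much lower in the Prmt5 knockdown library, so the values of those genes are a description. Polyadenylated RNA was sequenced from 1 library labelled Prmt5 knockdown and 1 control library, each made from 7 pooled lungs of C57BL/6 embryos at E14.5, when the lung is branching. The title of the knockdown sample names Shh and Prmt5, and the labels say neither how these genes were altered nor in which cells. The design text describes the control as wild-type lung. With 1 library per genotype there is no spread between replicates and no test, and all intervals below cover counting error only.

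The basement membrane is the sheet of matrix under the epithelial buds of the lung and around its vessels. Laminins and type IV collagens form its networks, nidogens link them, and perlecan and agrin bind them and carry heparan sulfate chains that hold growth factors. FRAS1, FREM1 and FREM2 are very large proteins that depend on each other for a stable place on the outer side of this sheet, and loss of Fras1 or Frem1 in mice is known to disturb the separation of lung lobes. Nephronectin is the ligand of integrin alpha8 beta1 on neighbouring mesenchyme.

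The Prmt5 knockdown library held 25829281 counted reads and the control library 22581490. Prmt5 had 2127 reads in the knockdown and 2704 in the control library, a log2 ratio of knockdown over control of -0.43 (95% counting interval -0.51 to -0.35), and Shh, the hedgehog ligand of the lung epithelium, had 109 and 1124 reads in the same order. The knockdown library stood apart in its tissue markers. Lung epithelium markers were lower past the rule given below in 15 of 18 genes and higher in none, with a summed level of 395 FPKM in the knockdown and 1228 FPKM in the control library. Lung mesenchyme markers were lower in 6 of 11 and higher in none, and endothelium markers were lower in 4 of 9 and higher in none. All measured markers of liver (8), heart muscle (7), skeletal muscle (6) and adrenal cortex (6) were higher. The labels name none of these tissues. All measured markers of red blood cells (6) and stratified epithelium (4) were higher too. The liver list alone summed to 5130 FPKM in the knockdown and 30.5 FPKM in the control library. Mesothelium markers were higher in 5 of 6, nerve and glia markers were higher in 5 of 7 and lower in 1, and smooth muscle markers were higher in 1 of 4 measured and lower in 2. No library could be left out. Whether tissue of other organs was present, and its part in any value below, was not tested.

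FPKM is the authors' read count scaled to gene length and library total. Genes with 50 reads or more in either library count as measured. A gene is called higher or lower past the rule when its ratio between libraries reached 1.5 in that direction and the 95% counting interval left out a ratio of 1. All 10 genes were measured. Of these, 5 were lower (Tinag, Frem1, Frem2, Nid1 and Agrn), 1 was higher (Tinagl1) and 4 did not pass the rule (Fras1, Npnt, Nid2 and Hspg2). Of the 14569 measured genes, 12.3% were lower and 20.7% higher past the same rule, 33.0% in all. Higher genes made up 62.7% of these calls, or 52.3% when libraries were scaled by total counts. The median log2 ratio was -0.42 over the 10 genes and -0.01 over all measured genes. Since the choice of Tinag and Frem1 used this contrast, nothing further is read from that count. In whole-lung RNA, fewer cells of a type and less RNA per cell cannot be told apart.

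**Figure D1:**
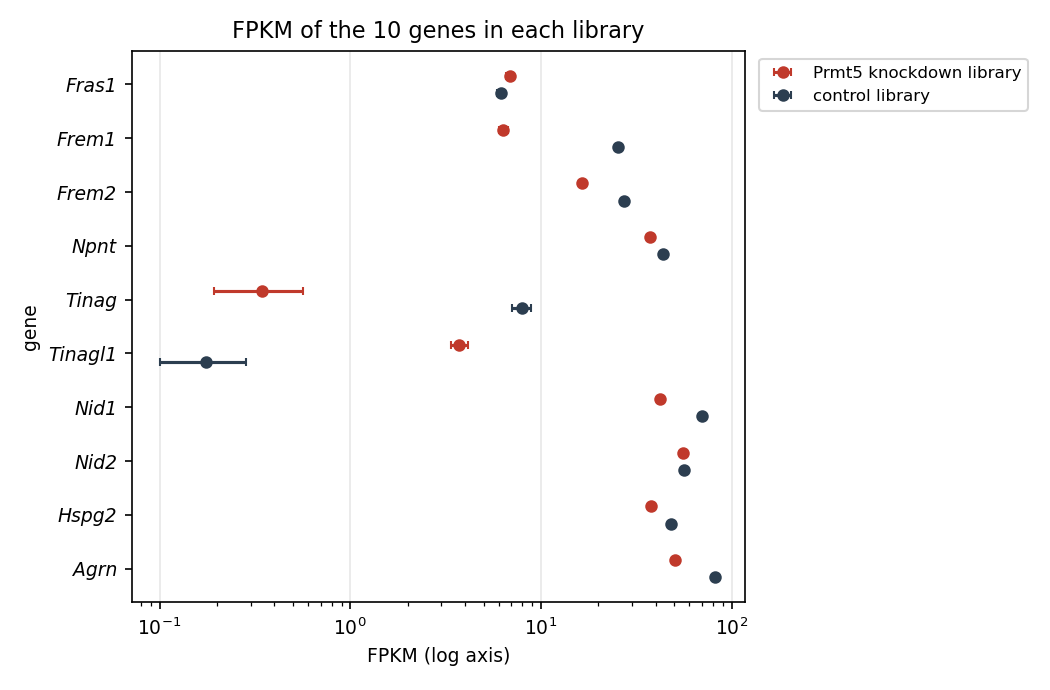
FPKM of the 10 genes on a log axis, with the Prmt5 knockdown library in red above the control library in dark blue and exact 95% Poisson counting intervals as bars. Tinag and Tinagl1 exchange places between the libraries. Frem1, Frem2, Nid1 and Agrn also lie apart between the libraries, and Fras1, Npnt, Nid2 and Hspg2 lie closer together.

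Among the FRAS/FREM genes, Frem1 differed most between the libraries. Frem1 (NCBI gene 329872, chromosome 4, 82897920 to 83052506, GRCm38.p6) had 1447 reads and 6.35 FPKM (6.02 to 6.68) in the knockdown library, against 5079 reads and 25.5 FPKM (24.8 to 26.2) in the control library. The log2 ratio was -1.90 (-1.98 to -1.81), 3.72-fold lower, and 184 measured genes had a lower ratio. Frem1 is known as a secreted member of the complex that is made largely by mesenchymal cells. Frem2 (NCBI gene 242022, chromosome 3, 53513938 to 53658593), an epithelial transmembrane member, had 3562 reads and 16.4 FPKM in the knockdown and 5201 reads and 27.3 FPKM in the control library. It was 1.55-fold lower (log2 -0.63, -0.69 to -0.57), close to the threshold. Fras1 (NCBI gene 231470, chromosome 5, 96373777 to 96784733), the other epithelial transmembrane member, had 2558 reads and 6.86 FPKM in the knockdown and 2013 reads and 6.17 FPKM in the control library. Its log2 ratio of 0.26 (0.18 to 0.35) did not pass the rule.

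The balance of the FRAS/FREM genes within a library does not depend on how libraries are scaled to each other, and it was different in the knockdown library. Frem1 was chosen partly for its lower reads there, so every share and ratio below that includes Frem1 is a description. The summed level of the 3 genes was 29.6 FPKM in the knockdown and 59.0 FPKM in the control library. Frem1 made up 21.5% of that sum in the knockdown and 43.2% in the control library, whereas Fras1 made up 23.2% in the knockdown and 10.5% in the control library. Frem1 FPKM stood at 0.925 times Fras1 FPKM (0.867 to 0.987) in the knockdown library, against 4.13 times (3.92 to 4.35) in the control library. The difference of these ratios on the log2 scale, knockdown minus control, was -2.16 (-2.28 to -2.04). Frem2 over Fras1 was 2.39 in the knockdown and 4.43 in the control library, a log2 difference of -0.89 (-0.997 to -0.79). Frem1 over Frem2 was 0.388 in the knockdown and 0.932 in the control library, a log2 difference of -1.27 (-1.37 to -1.16). The lengths behind these FPKM values were 8828 bp for Frem1 and 8427 bp for Frem2, against exon unions of 13978 and 13255 bp in the GENCODE annotation, so the levels of these genes depend on which transcript the authors' lengths stand for. The log2 differences between libraries do not use the length.

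**Figure D2:**
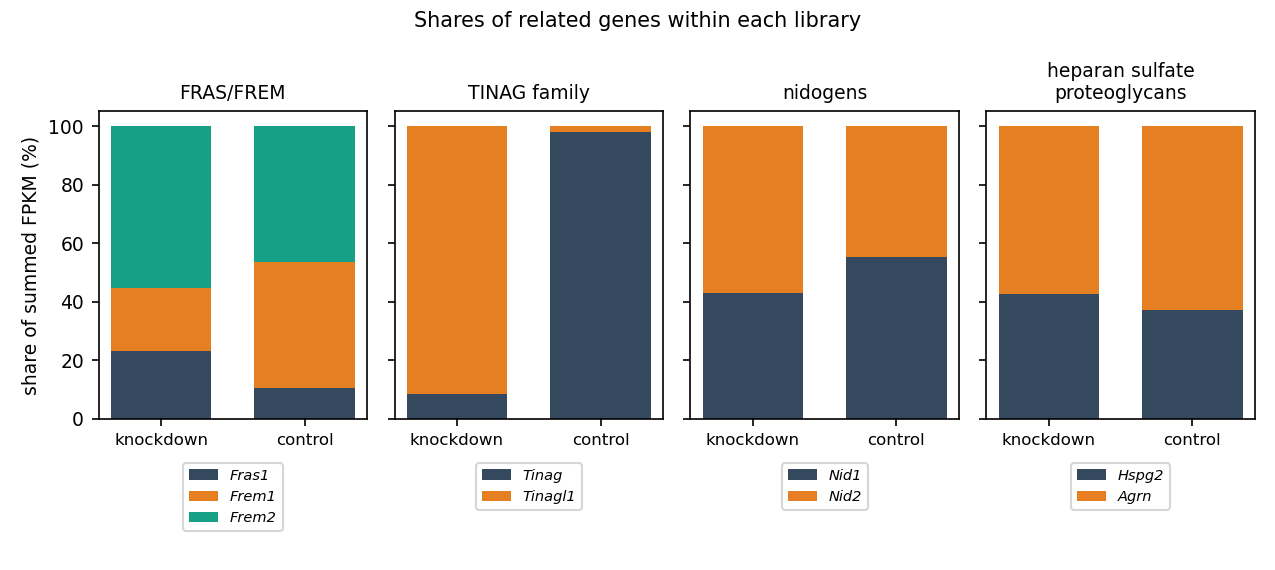
Share of the summed FPKM (percent) that each gene holds within its group, with the Prmt5 knockdown library left of the control library in each panel. Tinagl1 holds 91.6% of the TINAG pair in the knockdown and 2.16% in the control library, and Frem1 holds 21.5% of the FRAS/FREM sum in the knockdown and 43.2% in the control library.

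The proportion of nephronectin to its integrin receptor differed between the libraries by less than counting error. Npnt (NCBI gene 114249, chromosome 3, 132881745 to 132950291) had 4429 reads and 37.3 FPKM (36.2 to 38.4) in the knockdown library, against 4556 reads and 43.8 FPKM (42.6 to 45.1) in the control library. Its log2 ratio was -0.12 (-0.18 to -0.06) and did not pass the rule. Itga8, the alpha chain of the nephronectin receptor, had 1602 reads in the knockdown and 1661 in the control library, with a log2 ratio of -0.14 (-0.24 to -0.04). Npnt FPKM was 3.37 times Itga8 FPKM (3.18 to 3.57) in the knockdown library and 3.34 times (3.16 to 3.54) in the control library. The log2 difference was 0.01 (-0.11 to 0.13).

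The TINAG pair showed the widest differences among the 10 genes, in opposite directions. Tinag (NCBI gene 26944, chromosome 9, 76951698 to 77045802) encodes tubulointerstitial nephritis antigen, a protein first known from the basement membrane of kidney tubules. It had 15 reads and 0.344 FPKM (0.192 to 0.567) in the knockdown library, against 303 reads and 7.94 FPKM (7.07 to 8.89) in the control library. The log2 ratio was -4.37 (-5.28 to -3.68), 20.7-fold lower, which ranked 10 from the lowest among the 14569 measured genes. Tinagl1 (NCBI gene 94242, chromosome 4, 130165600 to 130175122) encodes a related matrix protein that was also described as an adrenocortical zonation factor. It had 391 reads and 3.74 FPKM (3.38 to 4.13) in the knockdown library, against 16 reads and 0.175 FPKM (0.10 to 0.284) in the control library. The log2 ratio was 4.49 (3.81 to 5.35), 22.4-fold higher, and 390 measured genes had a higher ratio. Within the knockdown library Tinag FPKM was 0.0919 times Tinagl1 FPKM (0.0510 to 0.153), and within the control library it was 45.4 times (27.5 to 80.4). With 15 and 16 reads on the lower side of each gene, both intervals are wide. Tinag was chosen partly for its lower reads in the knockdown library, so its ratios to Tinagl1 are a description.

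Markers of adrenal cortex and kidney are given here because these genes are known from those organs; the liver, heart muscle, skeletal muscle, red blood cell and stratified epithelium lists were also higher in every measured member. The adrenal cortex list summed to 98.5 FPKM in the knockdown and 1.28 FPKM in the control library, and its genes Cyp11b1 and Cyp21a1 had 0 control reads. Star, which carries cholesterol into steroid-making mitochondria, had 833 reads in the knockdown and 69 in the control library. Kidney markers gave no shared direction. Of 13 kidney genes 5 were measured, 3 higher and 2 lower, and Lhx1, Umod, Slc34a1 and Slc22a6 had 0 reads in both libraries. The highest of them in the control library, Cdh16, at 8.399 FPKM there and 1.51 FPKM in the knockdown library, also belongs to lung epithelium. The lung epithelium factor Nkx2-1 had 895 reads in the knockdown and 7550 in the control library, a log2 ratio of -3.16 (-3.26 to -3.06). That was the lowest ratio of the 18 lung epithelium markers, whose median was -1.55. Id2, Krt8 and Krt18 of that list did not pass the rule. The part of adrenal, kidney or epithelial tissue in the Tinag and Tinagl1 values was not tested.

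The stretches before the outermost annotated starts of the pair are shown because these related genes differed in opposite directions. Both lie on the minus strand of GRCm38.p6 and come from RefSeq, at chr9:77045803-77046031 for Tinag and chr4:130175123-130175372 for Tinagl1. Capitals mark matches on either strand to CTCAAG, a core of NKX2-1 sites, and TGTTTGC, a core of forkhead sites.
Tinag: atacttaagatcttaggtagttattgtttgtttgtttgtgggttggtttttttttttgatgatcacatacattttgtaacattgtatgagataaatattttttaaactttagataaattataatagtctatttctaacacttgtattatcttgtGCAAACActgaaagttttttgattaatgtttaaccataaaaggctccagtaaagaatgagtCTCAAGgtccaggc
Tinagl1: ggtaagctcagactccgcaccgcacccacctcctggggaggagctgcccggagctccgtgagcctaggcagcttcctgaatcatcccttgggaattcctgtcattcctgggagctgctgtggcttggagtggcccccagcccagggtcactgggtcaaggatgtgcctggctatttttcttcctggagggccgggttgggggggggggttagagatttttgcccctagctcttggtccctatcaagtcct

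The sequences differ in base composition. The Tinag stretch of 229 bases had a GC content of 27.5% and 0 CpG dinucleotides, and the Tinagl1 stretch of 250 bases had a GC content of 60.8% and 5 CpG dinucleotides. The Tinag stretch was shortened to leave out bases of its annotated first exon. The whole Tinag window of 250 bases had a GC content of 28.8% and 1 CpG dinucleotide, and the second Tinagl1 window 59.2% and 13. Over the 32851 RefSeq promoter windows of 250 bases before a start, the median GC content was 52.4% and the median number of CpG dinucleotides was 6. The search covered 10 motifs on both strands: the TATA box TATAAA, the NKX2-1 core CTCAAG, the forkhead cores TGTTTAC with A and TGTTTGC with G, the HNF1 core GTTAAT, the SP1 core GGGCGG, the CCAAT box, the GLI site GACCACCCA, the E-box CACGTG and the AP-1 site TGACTCA. The Tinag stretch held 2 of them, CTCAAG and TGTTTGC, which do not overlap there, and the printed Tinagl1 stretch held 0. The window before a second annotated Tinagl1 start, chr4:130174803-130175052, which overlaps annotated exons and is not printed, did hold CTCAAG, as well as GGGCGG. Of all windows, 13.3% held CTCAAG and 4.30% held TGTTTGC. The capitals were assigned after the matches were seen, and a match is a description of the letters.

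The nidogens exchanged order. Nid1 (NCBI gene 18073, chromosome 13, 13437602 to 13512275) had 6544 reads and 41.9 FPKM (40.9 to 42.9) in the knockdown library, against 9529 reads and 69.8 FPKM (68.4 to 71.2) in the control library. It was 1.54-fold lower (log2 -0.63, -0.67 to -0.58). Nid2 (NCBI gene 18074, chromosome 14, 19751257 to 19811787) had 6996 reads and 55.5 FPKM (54.2 to 56.8) in the knockdown library, against 6226 reads and 56.5 FPKM (55.1 to 57.9) in the control library. Its log2 ratio was 0.08 (0.03 to 0.13), did not pass the rule, and turned to -0.03 when libraries were scaled by total counts. Nid2 FPKM was 1.32 times Nid1 FPKM (1.28 to 1.37) in the knockdown and 0.809 times (0.783 to 0.835) in the control library, a log2 difference of 0.71 (0.64 to 0.78). Nid2 therefore stood above Nid1 in the knockdown library and below it in the control library, also with exon union lengths (1.43 and 0.877 times). Exons of Nid2 share 437 bases, 8.45% of their union, with Rtraf on the opposite strand, and the strand setting of the counting is not given in the sources used here. Shared exon bases made up 2.06% of the union for Nid1 and 0.898% for Fras1, each with a predicted gene on the opposite strand.

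The heparan sulfate proteoglycans were both highly expressed in each library. Agrn (NCBI gene 11603, chromosome 4, 156165290 to 156197533), which organises acetylcholine receptors at the nerve-muscle synapse and is also a common basement membrane proteoglycan, had 9012 reads and 50.7 FPKM (49.6 to 51.7) in the knockdown library, against 12780 reads and 82.2 FPKM (80.8 to 83.7) in the control library. It was 1.503-fold lower (log2 -0.59, -0.63 to -0.55) and was the gene just inside the threshold. Hspg2 (NCBI gene 15530, chromosome 4, 137468751 to 137570630), perlecan, had 13823 reads and 37.7 FPKM (37.0 to 38.3) in the knockdown library, against 15459 reads and 48.2 FPKM (47.4 to 49.0) in the control library. Its log2 ratio was -0.25 (-0.28 to -0.21), 1.19-fold lower. Among the genes that did not pass it was the nearest to the lower threshold, though well short of it. Agrn FPKM was 1.35 times Hspg2 FPKM in the knockdown and 1.71 times in the control library, a log2 difference of -0.34 (-0.39 to -0.29). With exon union lengths the knockdown ratio became 1.005.

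The calls of Frem2, Nid1 and Agrn depended on scaling. When the scaling factors were computed on genes with at least 50 control reads, their log2 ratios were -0.56, -0.56 and -0.52 and only Tinag and Frem1 of the 10 genes were still lower. With DESeq2 size factors Agrn did not pass the rule.

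**Figure D3:**
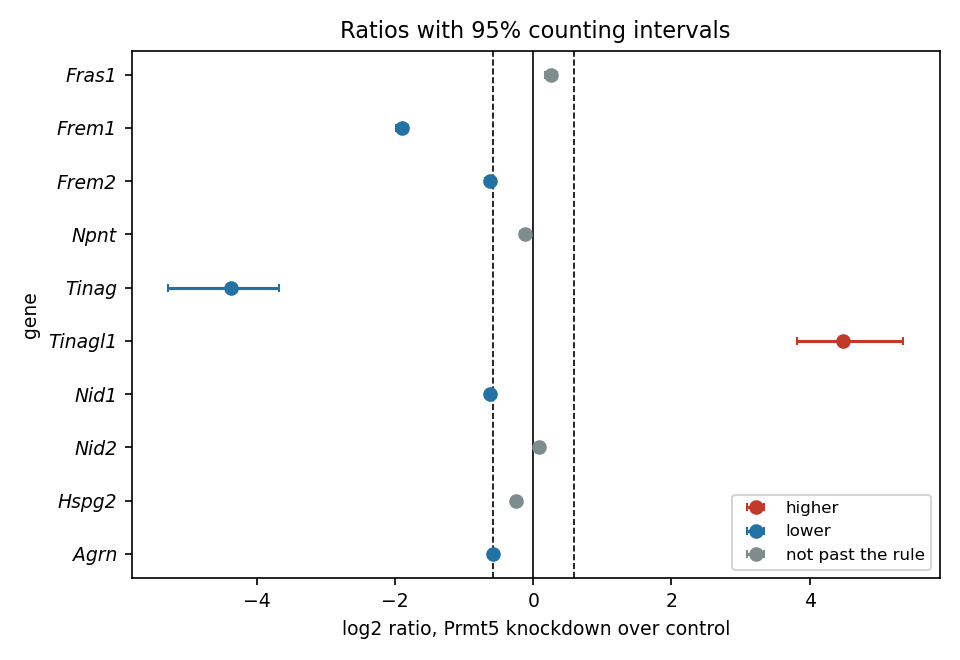
Log2 ratio of Prmt5 knockdown over control for each gene with exact 95% counting intervals. Dashed lines mark the ratio of 1.5 in either direction; Frem2, Nid1 and Agrn lie just past the lower line, and Tinag and Tinagl1 lie far out on opposite sides.

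The order of the levels per length was not the same in the libraries. In the knockdown library it ran Nid2, Agrn, Nid1, Hspg2, Npnt, Frem2, Fras1, Frem1, Tinagl1 and Tinag, where the counting intervals of Hspg2 and Npnt overlapped, as did those of Fras1 and Frem1. In the control library it ran Agrn, Nid1, Nid2, Hspg2, Npnt, Frem2, Frem1, Tinag, Fras1 and Tinagl1, with no overlap between neighbours. Nid2 stood above 89.9% of measured genes by FPKM in the knockdown library, and Tinag stood above 1.37%. The 10 genes together took 48777 reads, 0.189% of the knockdown library, and 61162 reads, 0.271% of the control library.

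**Figure D4:**
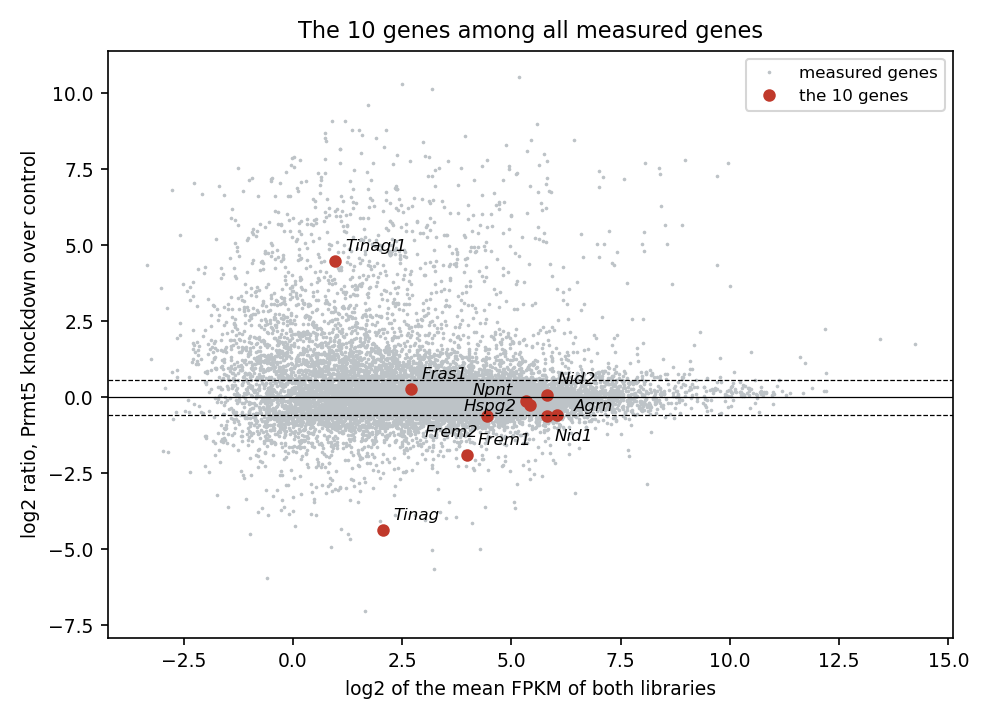
Log2 ratio of Prmt5 knockdown over control against the log2 of the mean FPKM of both libraries, with the 14569 measured genes in grey, the 10 genes in red and dashed lines at a ratio of 1.5. Tinag lies at the lower edge of the measured genes, and 390 genes lie above Tinagl1.

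Set beside the tissue markers, most of the 10 genes had ratios above the medians of the lung epithelium and lung mesenchyme lists, but not above that of the endothelium list. The median log2 ratio was -1.55 over lung epithelium markers, -0.76 over lung mesenchyme markers and -0.57 over endothelium markers. Single markers ranged from -3.16 to 0.11 in the epithelium list and from -2.06 to 0.44 in the mesenchyme list. The Frem1 ratio of -1.90 lay within both ranges. The mesenchyme list summed to 1896 FPKM in the knockdown and 1940 FPKM in the control library. Of the 10 genes 8 had a ratio above the epithelium median, and the same number had one above the mesenchyme median, Frem1 and Tinag being below each time. Against the endothelium median 5 were above, and Frem1, Frem2, Tinag, Nid1 and Agrn were below. Frem1 and Tinag were chosen partly for their lower reads in the knockdown library, so their places below these medians are a description. Fras1 stood 1.81 above the epithelium median on the log2 scale and Npnt 1.42 above it. Frem1 stood 0.35 below the epithelium median and 1.13 below the mesenchyme median (differences of -0.35 and -1.13). These differences subtract medians that were themselves lower in the knockdown library, and they do not show a rise of any gene.

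Partners of the FRAS/FREM proteins and of nephronectin went both ways, and nothing further is read from their counts. Of 6 such genes 1 passed as higher and 1 as lower, beside 20.7% higher and 12.3% lower of all measured genes. The median log2 ratio over the 6 genes was 0.09. Vwa2, whose protein AMACO binds FRAS1 in the basement membrane, had 59 reads in the knockdown and 821 in the control library, a log2 ratio of -3.87 (-4.29 to -3.50). Frem3, another FREM family gene, had 95 and 40 reads in the same order and a log2 ratio of 1.15 (0.62 to 1.73). Its level stayed low, at 0.555 FPKM in the knockdown and 0.267 FPKM in the control library. With FPKM at a pseudocount of 1 Frem3 did not pass the rule. Grip1, a scaffold that carries FRAS1 and FREM2 to the cell surface, had a log2 ratio of 0.32 (0.10 to 0.54), and Egfl6, a relative of nephronectin, one of 0.31 (0.17 to 0.45).

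Network components of the basement membrane were lower more often than higher. Of 11 laminin chains 6 were lower and none higher (median -0.78), among them Lamb3 (-1.98), Lama3 (-1.86) and Lama1 (-1.36). Of 6 collagen IV chains 5 were lower and none higher (median -0.72), with Col4a4 (-1.95), Col4a3 (-1.36), Col4a1 (-0.77) and Col4a2 (-0.62), the last pair being the common chains of all basement membranes. Of 13 measured receptors 5 were lower and none higher (median -0.39), with Itga2 (-1.23), the agrin receptor Lrp4 (-0.89), Itga3 (-0.85) and Itga9 (-0.82). Musk, the kinase that acts with Lrp4, had 41 reads in the knockdown and 3 in the control library and was under the read minimum. Dag1, which binds laminin, perlecan and agrin, had a log2 ratio of -0.02 (-0.08 to 0.03). Across these 6 lists of 64 measured genes, 20 were lower (31.3%) and 5 higher (7.81%), beside 12.3% and 20.7% of all measured genes. The lists were chosen with earlier results of these data known. In the same library 15 of 18 epithelial, 6 of 11 mesenchymal and 4 of 9 endothelial markers were lower past the rule, and none was higher. Their part in these counts was not tested.

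The remaining lists held most of the 5 higher genes. Counts in these lists stand beside 20.7% higher and 12.3% lower of all measured genes, and nothing further is read from them. Of 16 other basement membrane proteins 2 were higher, 2 were lower and 12 met neither bound (median 0.02). Smoc1, a calcium-binding matrix protein that modulates BMP signalling, had 594 reads in the knockdown and 34 in the control library (log2 4.02, 3.54 to 4.59), and Fbln2, which binds nidogens, had 8290 reads in the knockdown and 2261 in the control library (log2 1.79, 1.72 to 1.86). Col15a1 (-0.82) and Fbln1 (-0.59) were lower, but Fbln1 did not pass with DESeq2 size factors or with scaling on genes with at least 50 control reads. Under the second of these Col4a2 was not lower past the rule either. Of 12 enzymes that build or trim heparan sulfate, the chain carried by perlecan and agrin, 2 were higher, 1 was lower and 9 met neither bound (median -0.15). The sulfatase Sulf1 (0.94, 0.87 to 1.02) and the sulfotransferase Hs3st1 (0.97, 0.52 to 1.45) were higher, and Ndst1 (-0.68, -0.74 to -0.62), which starts chain sulfation, was lower.

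**Figure D5:**
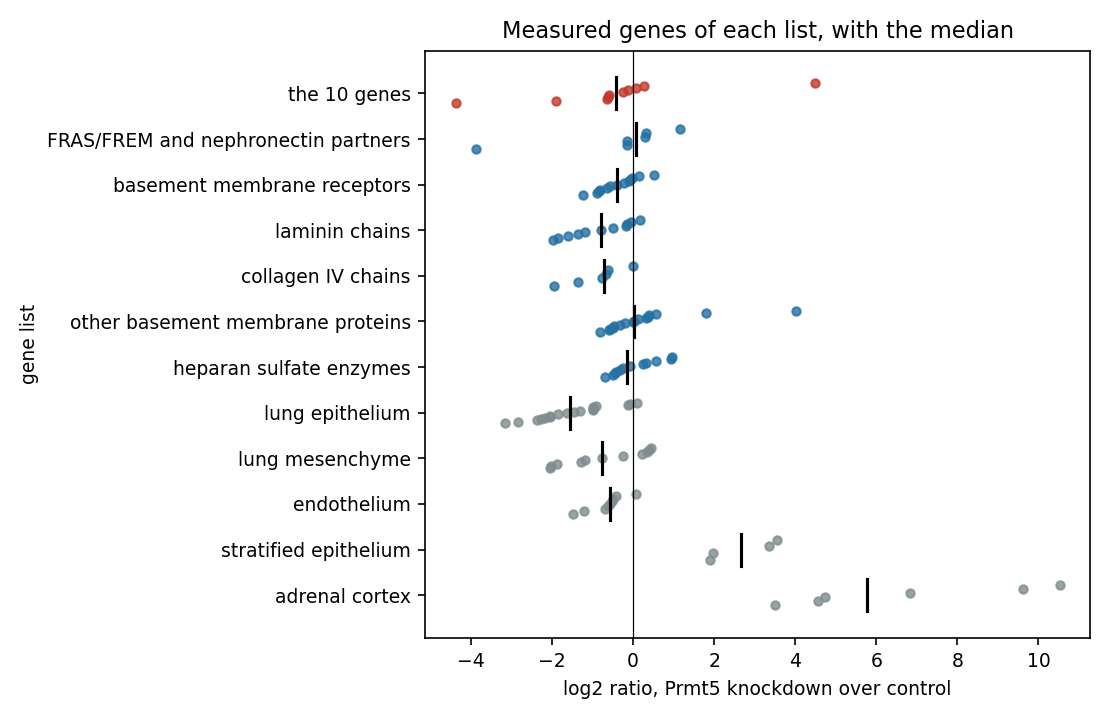
Log2 ratio of Prmt5 knockdown over control for every measured gene of each list, with a black line at the list median. Laminin and collagen IV chains lie mostly below 0, as do lung epithelium markers, while stratified epithelium and adrenal cortex markers lie above 0; the values of Cyp11b1 and Cyp21a1, which had 0 control reads, depend on the prior count.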

How the data were processed

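The authors deposited raw read counts per gene and FPKM values for 2 libraries. TopHat2 2.0.12, Bowtie2 2.2.3, HTSeq 0.6.1 and build mm10 are named, per the submitters' processing notes; the annotation and how multi-mapped reads were treated are not stated there. The deposited FPKM equalled the count divided by a whole-number length (within 0.001 bp) and the library's total in 100% of 22831 genes with reads in both libraries. Counts were scaled by the trimmed mean of M values (TMM, edgeR 4.0.16, factors 0.963 for knockdown and 1.04 for control). The log2 ratio used a prior count of 0.5, and its 95% interval came from the Clopper-Pearson limits of the knockdown share of both counts. Intervals of FPKM were exact Poisson, and ratios between genes used exact conditional intervals. Reads are not independent molecules, so intervals cover counting error only. The scripts were tested on simulated data. Alternatives (total counts, DESeq2 1.42.0 size factors, other priors, FPKM pseudocounts, read minima and bounds) stand in the closing section. The genes and lists were chosen with earlier results of these data known. Named genes were the 10 genes and, per list, up to 4 past the rule ranked by the interval bound nearest to 1 (1 such gene is not reported here but stays in its list); Itga8 was fixed with its ratio to Npnt, and Grip1, Egfl6, Musk, Dag1 and the tissue markers given with values were added after their values were seen. Symbols, coordinates and promoters came from RefSeq GRCm38.p6, the assembly of mm10; 8 of the 10 genes matched a promoter. Exon unions came from GENCODE M21.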

Additional observations from a re-analysis of the deposited data

How the results depend on the processing

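Across 6 alternatives of scaling, prior count and FPKM, 57 of 60 log2 ratios of the 10 genes kept their sign, and the other 3 were Nid2, near -0.03 under total counts and FPKM with either pseudocount. Tinag ranged from -4.48 to -2.73 and Tinagl1 from 2.01 to 4.55, each nearest to 0 with FPKM at a pseudocount of 1. The median over the 10 genes was -0.53 under total counts, -0.35 with TMM on genes with at least 50 control reads, and -0.53 and -0.52 with FPKM at pseudocounts of 0.1 and 1. The number of the 10 genes lower past the rule was 2 with TMM on genes with at least 50 control reads and 2 at a ratio of 2, both times Tinag and Frem1, and 4 or 5 under the other settings; Tinagl1 was the higher gene under all 10 settings. In the pathway lists, 8 genes were higher with TMM on genes with at least 50 control reads and 3 at a ratio of 2, where 9 were lower. Of the 20 lower genes of these lists, Fbln1 lost its call with DESeq2 size factors, Fbln1, Col4a2 and Itga1 with TMM on genes with at least 50 control reads, and Col4a3 and Col4a6 with FPKM at a pseudocount of 1. Under total counts the median over all measured genes moved by -0.11. Of all calls, 62.7% were higher with TMM, 52.3% with total counts, 53.0% with FPKM at a pseudocount of 0.1 and 74.4% at a ratio of 2. Exon union lengths moved most ratios between genes within a library, but none crossed 1. No paired analysis was possible because each genotype has 1 library, and for the same reason no replicate could be left out. Depth limits Tinag in the knockdown and Tinagl1 in the control library, with 15 and 16 reads.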
